A study of Mus musculus with 130 samples.

Results

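The comparison described here set the RNA-seq library of mouse embryonic stem cells labelled as lacking both G9a and GLP against the library of cells whose only G9a was a catalytic mutant, and asked what loss of both proteins adds to loss of G9a catalysis. Its members were the genes that reached 1 CPM in one library or both, CPM being counts scaled to a common library size, without those on chromosome Y. They were 13863 of the 52550 genes in the files, and 6 chromosome Y genes that reached 1 CPM were left out. The lowest larger value among members was 1.00 CPM and the highest among the genes left out was 0.944 CPM. The larger value lay from 0.9 to under 1 CPM for 201 genes and from 1 to under 1.1 CPM for 271 genes.

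Both lines are of C57BL/6xCBA background, were grown on gelatin in serum with LIF, and are each 1 clone. The G9a catalytic mutant (G9a CM, clone G7) has the genotype G9a-/- Tg(Y1120V;Y1207F), a knockout that carries a G9a transgene with both substitutions. The G9a/GLP double knockout (DKO, clone 248-6) has the genotype G9a-/-;GLP-/-. Endogenous G9a is thus absent by label in both, while GLP is intact in G9a CM only. Wild-type (WT) TT2 cells of the same background, called the wild type below, are given beside them. The inhibitor control, DMSO-treated WT TT2 cells, and TT2 cells treated with the G9a/GLP inhibitor UNC0638 are given where stated, as are WT J1 cells of strain 129S4/SvJae and 2 DNA methyltransferase mutants of that strain, one lacking Dnmt3a and Dnmt3b (Dnmt3a/3b DKO) and one that lacks Dnmt1 too (TKO). Total RNA was made into Smart-seq2 libraries, 1 per group, and the other 120 of the 130 samples are not analysed here.

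G9a (Ehmt2) and GLP (Ehmt1) are related SET-domain enzymes that work as a heterodimer and place mono- and dimethylation on lysine 9 of histone H3, a mark of silent euchromatin. Either partner can in principle act in the complex through its catalytic domain or through domains that bind methylated histone tails and recruit other factors, DNA methyltransferases among them. In embryonic stem cells the pair is best known for silencing germline genes, some imprinted genes and genes of the early cleavage embryo.

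With 1 library in each group there was no replicate and no test. The differences below compare these libraries, which differ in clone as well as genotype, so clone and genotype cannot be told apart. A gene was called higher or lower when log2(CPM + 1) in the DKO library minus that in the G9a CM library was at least 1 in size and the 95% exact interval of the ratio excluded 1. That interval covers counting error only and leaves out how reads were shared among alike genes. Reads amplified by PCR and not marked by molecular identifiers can repeat 1 molecule, so the interval may be too narrow even for counting error. Folds are ratios of CPM.

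The G9a CM library held 16530318 counts and the DKO library 11436808, the fewest of the 10 RNA libraries, of which WT TT2 held the most, 25609600. A gene at 0 counts could hold up to 3 counts, or 0.177 CPM in the G9a CM library and 0.236 CPM in the DKO library. All 11 stem cell markers examined (among them Nanog, at 437 CPM in G9a CM and 423 in the DKO, and Sox2, at 63.0 and 78.1) were measured in both libraries, at no less than 15.4 CPM, and none was called. Markers of other cell types were measured too. Summed CPM in G9a CM and the DKO was 473 and 391 over 24 trophoblast genes, 537 and 685 over 20 primitive endoderm genes, 77.6 and 112 over 17 neural genes, and 170 and 248 over 16 fibroblast genes. Cdx2 and Prl3d1 (trophoblast), Foxa2 and Ttr (primitive endoderm), Dcx and Zic1 (neural) and Lum (fibroblast) were at 0 counts in both libraries. The 7 measured mitochondrially encoded genes summed to 22586 CPM in G9a CM, 37494 in the DKO and 37741 in WT TT2, and the intervals of all 7 lay above 1. The part of these differences in the results below was not tested.

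The targeted genes came first. Ehmt1, which encodes GLP (chromosome 2), stood at 47.9 CPM (813 counts) in G9a CM, 7.95 CPM (101 counts) in the DKO and 38.3 CPM in WT TT2. It was 6.03-fold lower in the DKO library than in the G9a CM library (interval 4.89 to 7.49), the lowest Ehmt1 level of the 10 libraries. Ehmt2, which encodes G9a (GRCm38 chromosome 17, 34898463 to 34914073), stood at 27.8 CPM in G9a CM, 17.9 in the DKO and 14.6 in WT TT2, 1.55-fold lower in the DKO than in G9a CM (interval 1.32 to 1.82) and short of a call. Counts were made over the gene as a whole, no source used here gives the deleted exons, and transgene transcripts may count towards Ehmt2 in G9a CM, so Ehmt2 cannot check its label.

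More genes were higher in the DKO library than lower. Of 13863 genes, 919 were called higher, 6.63%, and 414 lower, 2.99%, so 68.9% of the 1333 calls were higher. The median log2 difference over all genes was 0.03, with quartiles of -0.34 and 0.44. At a log2 difference of at least 2 there were 123 higher and 29 lower genes, and at 3 there were 28 and 5. Many higher genes were near silence in the catalytic mutant: 342 of the 919 (37.2%) were under 1 CPM there and 44 had 0 counts, whereas 84 of the 414 lower genes (20.3%) were under 1 CPM in the DKO and 11 had 0 counts. The higher calls lay at low levels. Among genes with a mean under 2 CPM, 10.1% were higher and 2.58% lower, against 1.78% and 2.14% among genes at 50 CPM or more, whose median was -0.18. Protein-coding genes made up 73.8% of the higher, 87.2% of the lower and 88.3% of all measured genes.

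**Figure D1:**
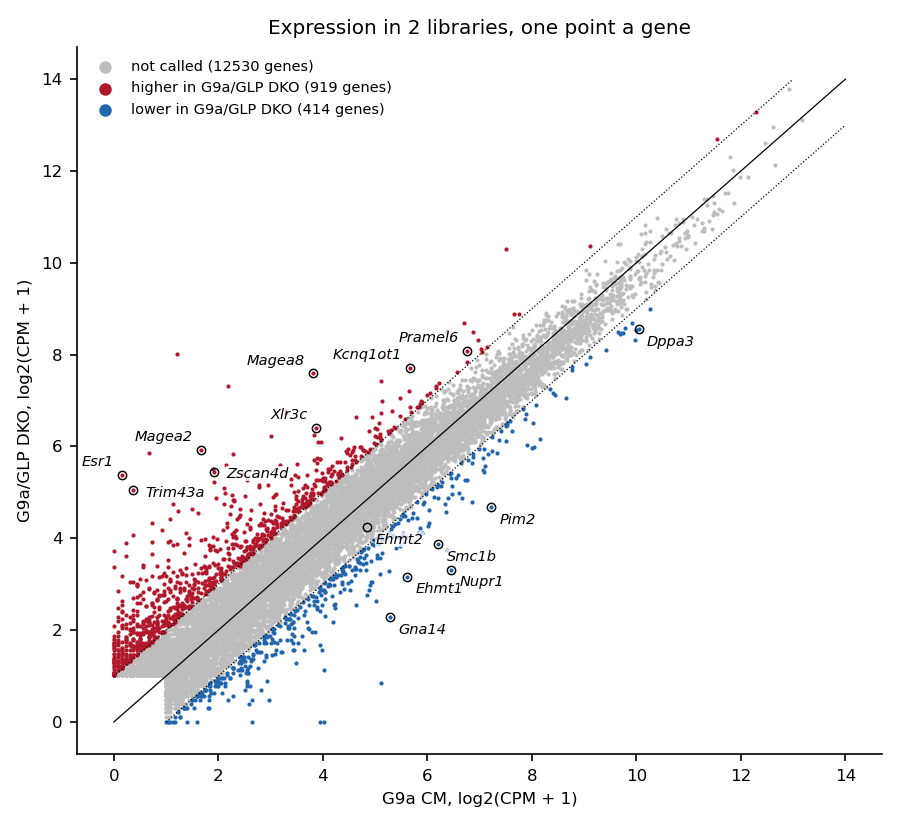
Each point is 1 of 13863 genes, by log2(CPM + 1) in the G9a CM library (x axis) and in the G9a/GLP DKO library (y axis); red points were called higher (919), blue points lower (414), the solid line is equality and the dotted lines a log2 difference of 1. The red points reach farther from the line than the blue ones and crowd the low end of the x axis, with Esr1, Magea2 and Trim43a far above it and Ehmt1, Nupr1 and Gna14 below.

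For scale, the same rule was applied to a pair of wild-type libraries of this background, the inhibitor control against WT TT2. It called 25.2% of 13664 genes higher (3448) and 22.0% lower (3008). Libraries of 1 genotype from separate cultures, 1 of them given DMSO, thus differed more often than the mutant libraries did. A call below says only that the counts of these libraries differ, and shares near 6.63% and 2.99% are what any gene group would show on average.

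The X-linked Mage genes, which are normally expressed in germ cells and tumours and in part encode partners of ubiquitin ligases, held some of the largest differences. Of 21 listed genes 13 were measured. Of these, 7 (53.8%) were higher and 0 lower, against 6.63% and 2.99% of all genes. The median log2 difference was 1.15 against 0.03 over all genes. Without a minimum level the median was 0.17. Of the 21 listed genes, 9 intervals lay above 1 and 3 below, against 19.9% and 17.5% of all detected genes. All 7 belonged to the Magea group. Magea8 stood at 0.118 CPM in the wild type, 13.0 in G9a CM and 193 in the DKO library, 14.9-fold higher in the DKO than in G9a CM (interval 13.0 to 17.2). Magea2 stood at 0.0393, 2.18 and 60.0 CPM, 27.5-fold higher (interval 19.8 to 39.4), and Magea5 at 0.0787, 8.78 and 104 CPM, 11.9-fold higher. These genes were thus near 0 in the wild type, low in the catalytic mutant and high in the double knockout. Magea6 rose from 2.89 CPM in G9a CM to 28.3 in the DKO and Magea3 from 2.06 to 22.6. Magea10, at 2.95 and 12.2 CPM, and Magea4, at 3.18 and 8.26 CPM, were the other two called. Mage genes outside this group did not follow: Maged1, a broadly expressed member, stood at 89.4 CPM in G9a CM and 78.5 in the DKO, Maged2 at 22.3 and 12.7, and Mageb16 at 21.1 and 25.1.

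The called Magea genes other than Magea4 and Magea10 are neighbours. Cldn34b1, Magea6, Magea3, Magea8, Magea2 and Magea5 formed an unbroken run of 6 higher genes over 176 kb of the X chromosome (GRCm38, 154886803 to 155063151), with a median log2 difference of 3.19. The 250 bases before the start sites of the pair with the largest differences are shown because they look alike. They come from RefSeq on GRCm38.p6 and lie on the minus strand, with every CpG, the dinucleotide that DNA methyltransferases methylate, in capitals. Magea2 lies at chrX:155033293-155033542 and Magea8 at chrX:154995851-154996100.
Magea2: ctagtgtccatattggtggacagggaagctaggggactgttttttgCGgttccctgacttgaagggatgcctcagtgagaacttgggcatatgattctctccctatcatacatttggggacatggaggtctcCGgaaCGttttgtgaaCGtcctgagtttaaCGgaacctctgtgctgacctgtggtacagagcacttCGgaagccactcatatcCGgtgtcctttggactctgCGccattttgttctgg
Magea8: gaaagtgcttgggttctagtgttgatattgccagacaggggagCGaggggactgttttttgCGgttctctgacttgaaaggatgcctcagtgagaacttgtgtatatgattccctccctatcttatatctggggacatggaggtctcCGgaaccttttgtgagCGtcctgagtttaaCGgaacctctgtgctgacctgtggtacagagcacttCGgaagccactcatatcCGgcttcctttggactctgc
Aligned at the shift that gave the most matches (15 bases), 216 of 235 positions were the same, 91.9%. The windows hold 8 and 7 CpG. All 13 measured Mage genes have a promoter in the table, with a median of 7 CpG against 6 over all 27025 promoters of the table. Genes this alike can share reads, so the split among single Magea genes is uncertain, and their sum does not depend on how reads were divided among them. The 7 measured Magea genes summed to 429 CPM in the DKO, 35.0 in the catalytic mutant and 0.393 in the wild type, while the other 6 measured Mage genes summed to 120, 137 and 102 CPM in that order.

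Xlr genes, X-linked and lymphocyte- or germ cell-expressed relatives of the synaptonemal complex protein Sycp3, showed the same order in part. All 10 listed genes were measured, and the median was 0.92. Of these, 5 (50%) were higher and 0 lower, against 6.63% and 2.99% of all genes. Without a minimum level, 8 intervals of the 10 listed genes lay above 1 and 2 below, against 19.9% and 17.5% of all detected genes. Xlr3c stood at 0.787 CPM in the wild type, 13.7 in G9a CM and 84.0 in the DKO, 6.14-fold higher in the DKO than in G9a CM (interval 5.33 to 7.11). Xlr4c rose from 3.24 CPM in G9a CM to 17.2 in the DKO, Xlr5c from 7.42 to 29.9 and Xlr4b from 11.1 to 25.8. Xlr itself stood at 0.471 and 2.83 CPM and was the fifth gene called. Xlr4c, Xlr3c and Xlr5c are neighbours within 59.8 kb (X, 73234076 to 73293863), while their near-identical copies Xlr3a (145 and 102 CPM) and Xlr3b (56.4 and 41.7 CPM) were already high in G9a CM and not called. How reads are shared among these copies was not tested.

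The Rhox homeobox cluster, X-linked genes of reproductive tissues and placenta, split by member. Of 32 listed genes 14 were measured, with a median of 0.66. Of these, 4 (28.6%) were higher and 1 (7.14%) lower, against 6.63% and 2.99% of all genes. Without a minimum level the median was 0.22. Of the 32 listed genes, 9 intervals lay above 1 and 3 below, against 19.9% and 17.5% of all detected genes. The 4 higher genes were all copies of Rhox2: Rhox2b at 1.89 CPM in G9a CM and 7.71 in the DKO, Rhox2h at 2.06 and 6.53, Rhox2a at 5.60 and 13.7, and Rhox2f, which had 4 and 19 counts. Rhox6, a placental and germ cell member, fell from 117 to 56.5 CPM, its level in WT TT2 being 57.2. Rhox5, the most abundant member, stood at 870 and 551 CPM and was not called. The summed level of the measured Rhox genes was therefore lower in the DKO, at 700 CPM against 1055 in G9a CM, although the median of the members was above 0.

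Genes of the cleavage-stage embryo, which mark rare cells that resemble the 2-cell embryo in stem cell cultures, were higher as a group. Of 34 listed genes 21 were measured; 17 were higher, 0 lower, and they had a median of 2.47. The measured genes had to reach 1 CPM in 1 of the libraries, and 10 of the 21 did so in the DKO only, so the count without a minimum is the fairer one: the counting interval lay above 1 for 27 of the 34 and below 1 for 0, against 19.9% above and 17.5% below over 24833 detected genes. The 21 measured genes summed to 5.07 CPM in the wild type, 37.2 in G9a CM and 378 in the DKO library. That sum includes the 10 genes measured through the DKO only. In bulk RNA, more cells that express such genes and more of their RNA per cell cannot be told apart.

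Zscan4d, a zinc finger gene of the family tied to telomere lengthening in stem cells, stood at 0.629 CPM in the wild type, 2.77 in G9a CM and 42.8 in the DKO, 15.5-fold higher in the DKO than in G9a CM (interval 11.5 to 21.3). Zscan4c stood at 3.77 and 29.7 CPM, Zscan4a at 4.83 and 37.4, and Zscan4f at 2.59 and 12.4, so that all 4 measured family genes were called. Of 4 Usp17l genes, which encode deubiquitinases, 3 were higher. Usp17lb stood at 1.18 and 26.0 CPM, 22.0-fold higher (interval 14.0 to 36.6), and Usp17le, at 0.707 and 2.12 CPM, was not called. Tcstv1 stood at 1.12 and 7.40 CPM and Zfp352 at 0.943 and 6.22. The translation factor-like genes Gm2016 (3.42 and 47.6 CPM) and Gm5662 (7.07 and 74.0 CPM) were each over 10-fold higher, at 13.9-fold and 10.5-fold. The start regions of a pair of Zscan4 genes, on opposite strands of chromosome 7, are shown for their likeness (RefSeq, GRCm38.p6; CpG in capitals). Zscan4d lies at chr7:11166149-11166398 on the minus strand and Zscan4c at chr7:11005495-11005744 on the plus strand.
Zscan4d: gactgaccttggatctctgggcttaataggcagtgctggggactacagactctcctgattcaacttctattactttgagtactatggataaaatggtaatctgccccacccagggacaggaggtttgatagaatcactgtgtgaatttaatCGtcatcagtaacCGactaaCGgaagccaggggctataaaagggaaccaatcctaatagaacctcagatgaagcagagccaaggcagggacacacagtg
Zscan4c: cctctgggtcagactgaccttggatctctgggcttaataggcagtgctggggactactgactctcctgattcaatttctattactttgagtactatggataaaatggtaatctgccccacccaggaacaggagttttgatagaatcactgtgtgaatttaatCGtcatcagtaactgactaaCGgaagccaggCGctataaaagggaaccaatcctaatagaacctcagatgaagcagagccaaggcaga
At a shift of 11 bases, 232 of 239 positions matched, 97.1%, and each window holds 3 CpG. As with Magea, values of single Zscan4, Usp17l and Eif1a-like genes are uncertain where the authors' counting had to divide reads among near-identical copies.

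The Pramel family, leucine-rich repeat proteins of preimplantation embryos and germ cells, also held higher calls. Of 42 Pramel and Nlrp4 genes listed 16 were measured, with a median difference of 1.12. Of these, 9 (56.25%) were higher and 0 lower, against 6.63% and 2.99% of all genes. All 16 reached 1 CPM in the DKO and 11 in G9a CM, so 5 were measured only through the library where they were high. Without a minimum level the median was 0.59. Of the 42 listed genes, 15 intervals lay above 1 and 0 below, against 19.9% and 17.5% of all detected genes. Pramel6 stood at 1.46 CPM in the wild type, 108 in G9a CM and 271 in the DKO, 2.52-fold higher in the DKO than in G9a CM (interval 2.38 to 2.67). Pramel7 stood at 1.53, 31.9 and 82.8 CPM. These genes, whose products are known for turnover of the DNA methylation cofactor Uhrf1, were thus already far above wild type in the catalytic mutant. Gm13078 (1.30 and 8.03 CPM) and Pramef25 (0.766 and 5.27 CPM), on chromosome 4, were low in both. Elobl, at 1.02 CPM in WT TT2, stood at 49.3 in G9a CM and 97.7 in the DKO, just short of a call with a log2 difference of 0.97. Nlrp4c (17.6 and 18.3 CPM) and Nlrp4f (63.6 and 60.7 CPM) had nearly the same level in both mutants, against 1.06 and 10.0 CPM in WT TT2.

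Outside these families, the gene with the largest difference by the naming rule was Esr1, which encodes estrogen receptor alpha, a nuclear receptor that activates genes when bound by estradiol. It had 2 counts in the G9a CM library (0.118 CPM) and 518 in the DKO library (40.8 CPM), a ratio of 346 with an interval of 95.3 to 2865. It had 0 counts in WT TT2, J1 and day 14 of UNC0638, and no more than 0.219 CPM in any other library, so the DKO library stood alone. Of the other 9 measured genes on the estrogen-responsive list, 1 was higher and 1 lower, too few genes to set against the 6.63% and 2.99% of all genes. Cited2 was higher (11.3 and 33.3 CPM), the scaffold gene Pdzk1 was lower (7.19 and 1.73 CPM) and 7 were not called, among them Ccnd1 (75.5 and 52.3 CPM) and Myc (42.3 and 29.2 CPM). The 250 bases before the Esr1 start in RefSeq (chr10:4611739-4611988, plus strand, GRCm38.p6, CpG in capitals) are shown to place it beside the families above.
Esr1: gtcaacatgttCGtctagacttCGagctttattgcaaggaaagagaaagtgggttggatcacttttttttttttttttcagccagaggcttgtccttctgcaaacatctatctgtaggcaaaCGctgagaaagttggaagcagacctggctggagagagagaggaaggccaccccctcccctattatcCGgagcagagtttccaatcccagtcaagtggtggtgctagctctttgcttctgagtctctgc
The window holds 4 CpG.

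Trim43a, a ring finger gene of cleavage embryos, stood at 0.354 CPM in the wild type, 0.295 in G9a CM and 32.0 in the DKO, 108-fold higher in the DKO than in G9a CM (interval 46.1 to 336). Other large differences were on the X chromosome: Efhc2, an EF-hand protein gene, stood at 8.84 and 108 CPM, Dcaf12l1 at 3.83 and 56.3, and Ube2dnl1, with 3 counts in G9a CM, at 0.177 and 13.9 CPM, a ratio of 78.8 (interval 26.5 to 386). Prex2, which encodes a Rac activator, stood at 0.648 CPM in G9a CM and was 29.4-fold higher in the DKO (interval 16.1 to 59.7). Slc24a5, a melanosome ion exchanger gene, stood at 45.9 CPM in the wild type, 2.71 in G9a CM and 44.3 in the DKO, so the DKO level was that of WT TT2. The TT2 libraries did not share one level, with 0 CPM in the inhibitor control and 0.646 to 1.90 in the UNC0638 libraries. Its count in the DKO carries a posterior standard deviation of 12.2%.

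**Figure D2:**
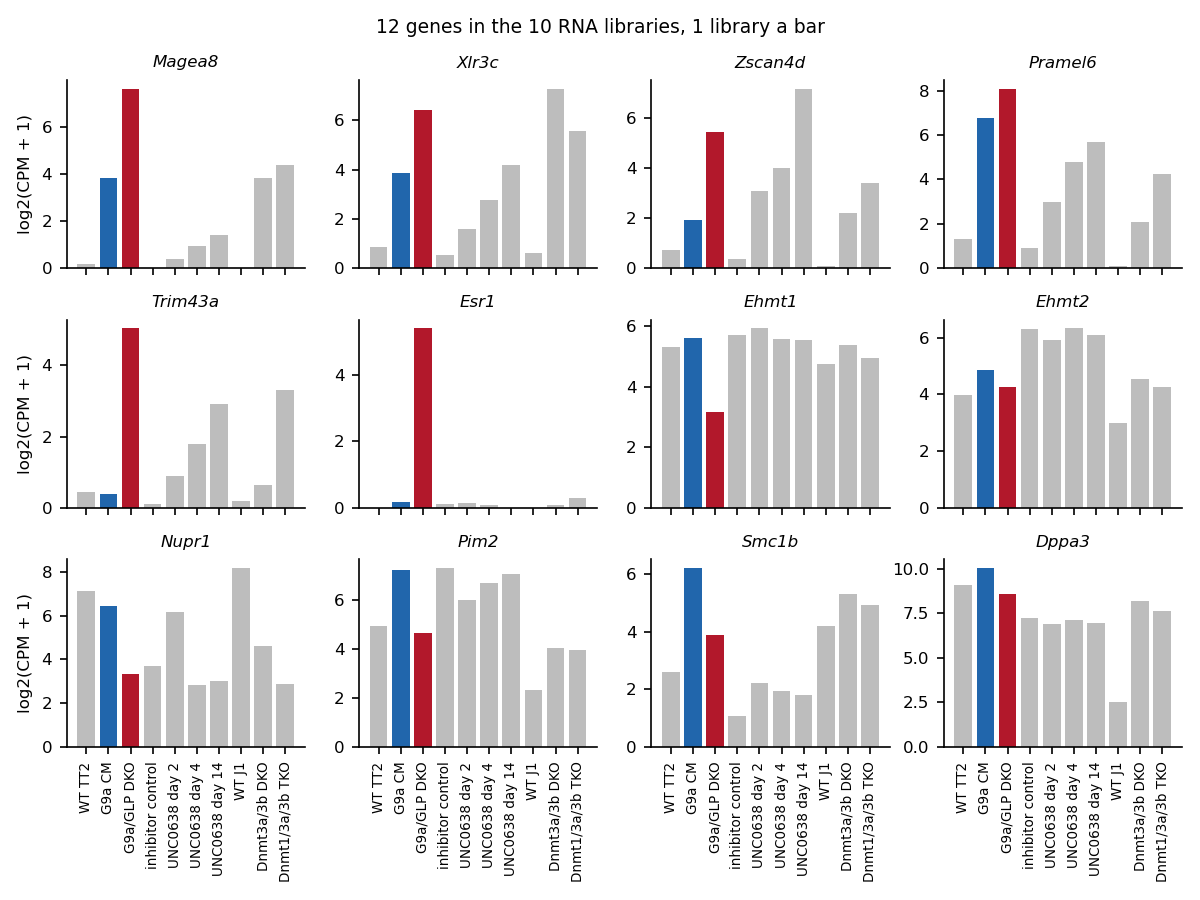
Bars give log2(CPM + 1) of 12 genes in each of the 10 RNA libraries, 1 library a bar, with G9a CM in blue and the G9a/GLP DKO in red. Magea8, Pramel6 and Esr1 are highest in the DKO; Zscan4d is highest after 14 days of UNC0638 (144 CPM against 42.8 in the DKO) and Xlr3c in the Dnmt3a/3b DKO (154 CPM against 84.0); Ehmt1 is lowest in the DKO, and Pim2, Smc1b and Dppa3 are lower there than in G9a CM.

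The other libraries gave these genes different levels. Magea8 stood at 1.61 CPM on day 14 of UNC0638, 13.3 in the Dnmt3a/3b DKO and 19.9 in the TKO, and at 0 in the inhibitor control and J1. Zscan4d stood at 144 CPM on day 14 and 9.53 in the TKO, above and below its 42.8 CPM in the G9a/GLP DKO. Trim43a reached 6.59 CPM on day 14 and 8.98 in the TKO. Over all 919 higher genes, the median level was 1.77 CPM in the wild type, 1.89 in G9a CM and 7.95 in the DKO. The inhibitor control had 1.25 CPM, the UNC0638 libraries 2.04 (day 2), 2.08 (day 4) and 2.91 (day 14), and the median was 2.08 in J1, 3.41 in the Dnmt3a/3b DKO and 4.44 in the TKO. The rule used the G9a CM and DKO values, so only the other 8 are free of the choice, and WT TT2 lay beside G9a CM. The 414 lower genes had medians of 11.1 CPM in the wild type, 14.5 in G9a CM, 4.88 in the DKO and 6.57 in the TKO.

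**Figure D3:**
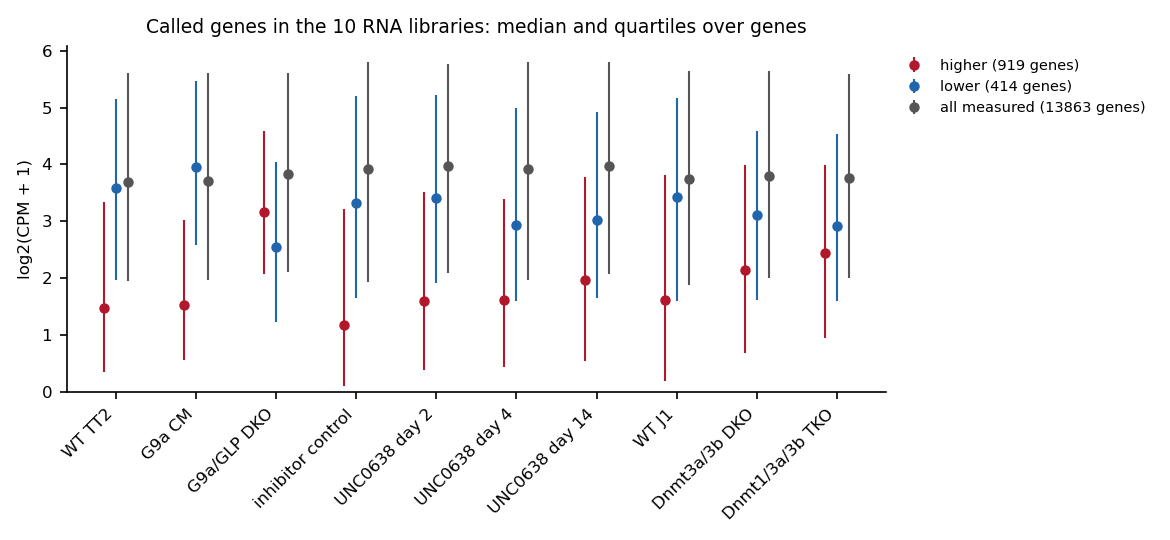
Points give the median log2(CPM + 1) and lines the quartiles over the 919 higher, 414 lower and all 13863 measured genes in each of the 10 RNA libraries. The genes were chosen on the G9a CM and G9a/GLP DKO values, so a high DKO median of the higher genes (7.95 CPM) follows largely from the choice. In the 8 libraries not used, the medians of the higher genes run from 1.25 CPM in the inhibitor control to 4.44 CPM in the TKO.

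Germline genes of the meiotic and piRNA programmes held more lower than higher calls. Of 52 listed genes 45 were measured, and 2 were higher and 9 lower (20.0% against 2.99% of all genes), with a median of -0.23. By role, 1 of 13 piRNA and transposon control genes was higher and 3 lower (median -0.72), and of 23 meiosis genes 0 were higher and 5 lower (median -0.22). The 9 germ cell identity genes had 1 higher and 1 lower and a median on the other side of 0, at 0.59. Smc1b, a meiotic cohesin subunit, stood at 5.07 CPM in the wild type, 73.0 in G9a CM and 13.7 in the DKO, 5.33-fold lower in the DKO than in G9a CM (interval 4.54 to 6.28). The catalytic mutant was the highest of the 10 libraries. The RNA helicase gene Ddx4 stood at 26.7, 55.1 and 16.2 CPM, the recombinase gene Dmc1 at 9.52, 12.3 and 3.07, and the piRNA pathway gene Rnf17 at 39.3, 69.2 and 28.7. Dppa3 (Stella), which protects maternal methylation in the zygote, stood at 549 CPM in the wild type, 1055 in G9a CM and 376 in the DKO. Tex11, Stag3, Meiob and Piwil2 were the other 4 lower genes. The cohesin gene Stag3 fell from 4.24 to 1.42 CPM and Piwil2, which encodes a piRNA-binding protein, from 11.3 to 5.12. The 2 higher genes were Asz1 (6.19 and 14.7 CPM) and Nanos3 (4.71 and 14.4 CPM), the latter on chromosome 8. Dazl (11.7 and 18.1 CPM), Stra8 (17.1 and 28.5 CPM) and Fkbp6 (27.7 and 27.6 CPM) were not called.

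Many germline promoters carry the E-box CACGTG, which the PRC1.6 subunits Mga and Max can bind. Of the 45 measured germline genes 37 have a promoter in the table, and 15 of these (40.5%) hold CACGTG, which reads the same on both strands, in the 250 bases before the start, against 6.04% of all 27025 promoters. Among the 15 with the motif 0 were higher, 2 lower and 13 neither; among the 22 without it 2 were higher, 2 lower and 18 neither. The Ddx4 window (chr13:112652311-112652560, minus strand, RefSeq, GRCm38.p6) is shown as the example of a lower gene with the motif, in capitals at base 222 of 250.
Ddx4: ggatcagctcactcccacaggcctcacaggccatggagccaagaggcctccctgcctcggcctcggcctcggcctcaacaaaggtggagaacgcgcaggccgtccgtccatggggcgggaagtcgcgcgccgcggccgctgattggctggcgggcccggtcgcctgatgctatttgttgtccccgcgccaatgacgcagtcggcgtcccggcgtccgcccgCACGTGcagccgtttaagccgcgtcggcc
It holds 31 CpG, against 8 in the Magea2 window. A match is a description of the letters and not a bound site.

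**Figure D4:**
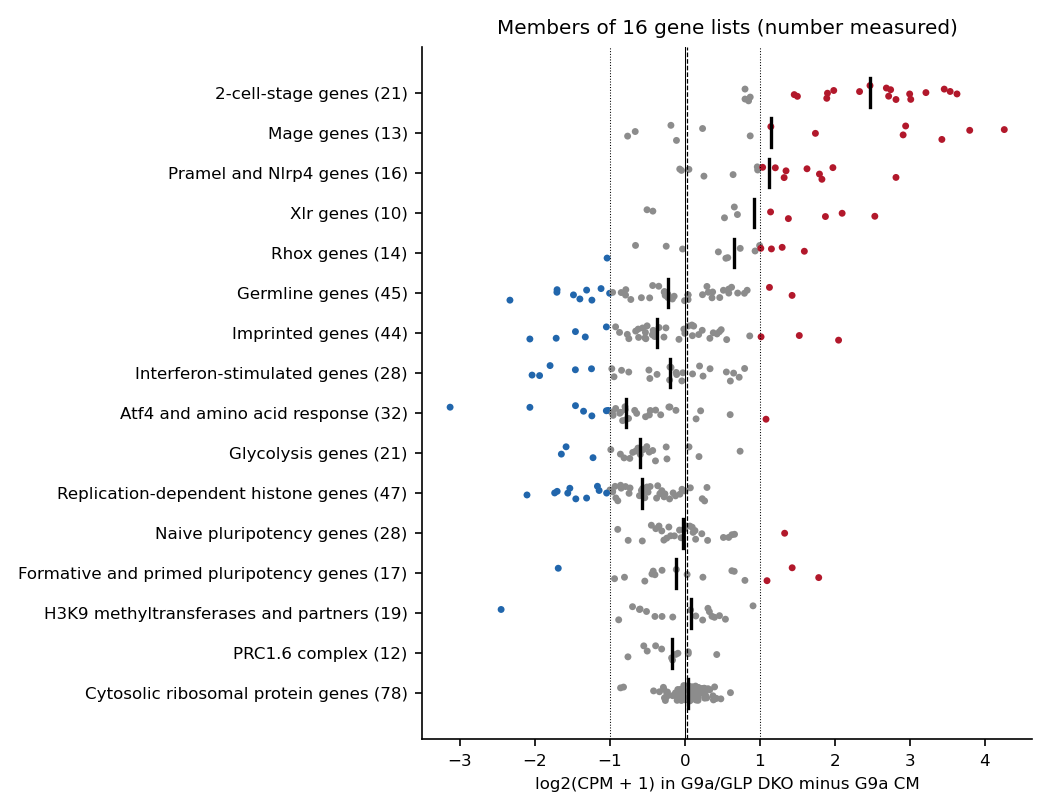
Each point is a measured gene, placed by its log2(CPM + 1) in the G9a/GLP DKO minus that in G9a CM, in 16 gene lists (number measured in brackets); red points were called higher and blue points lower, the black bar is the list's median, the dashed line the median of all genes (0.03) and the dotted lines differences of 1 in size. The 2-cell-stage (median 2.47), Mage, Pramel, Xlr and Rhox lists lie to the right, the Atf4 (-0.79), glycolysis and histone lists to the left, and the ribosomal protein genes near 0.

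Among genes of the amino acid response more were lower in the DKO than higher, though most were not called. Atf4 is the transcription factor translated under amino acid shortage and endoplasmic reticulum stress, and its targets make, import and charge amino acids. Of 35 listed genes 32 were measured, with a median of -0.79. Of these, 1 (3.1%) was higher and 7 (21.9%) lower, against 6.63% and 2.99% of all genes. Without a minimum level, 27 intervals of the 35 listed genes lay below 1 and 2 above, against 17.5% and 19.9% of all detected genes. Nupr1, a stress-response chromatin protein gene, stood at 140 CPM in the wild type, 86.3 in G9a CM and 8.97 in the DKO, 9.62-fold lower in the DKO than in G9a CM (interval 7.95 to 11.7). Chac1, which encodes a glutathione-degrading enzyme, stood at 58.2, 27.6 and 5.82 CPM, and the pseudokinase gene Trib3 at 38.9, 44.1 and 15.4. Among synthesis genes Psat1 (serine) stood at 701, 826 and 349 CPM, and Aldh18a1 (proline) at 54.9, 54.7 and 20.9. Mthfd2 and Cth completed the 7. Atf4 itself stood at 170 CPM in G9a CM and 118 in the DKO and was not called. The gene called higher was the transporter Slc7a5 (15.3 and 33.4 CPM), which lies on chromosome 8. Both mutants share the WT TT2 library as reference: the list's median was 0.05 in G9a CM minus WT and -0.62 in the DKO minus WT. In the other libraries Nupr1 ranged from 6.06 CPM on day 4 of UNC0638 to 288 in J1, and at 12.2 in the inhibitor control it was low in a wild-type library too.

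The composite element TGATGNAAT, which Atf4 heterodimers bind, was searched on both strands of 28 promoters of the 32 measured genes. It was in 3 (10.7%), against 0.825% of all promoters in the table. The Nupr1 window (chr7:126625471-126625720, minus strand, RefSeq, GRCm38.p6) holds it in reverse, in capitals from base 140 of 250, and is shown as the largest lower gene of the list.
Nupr1: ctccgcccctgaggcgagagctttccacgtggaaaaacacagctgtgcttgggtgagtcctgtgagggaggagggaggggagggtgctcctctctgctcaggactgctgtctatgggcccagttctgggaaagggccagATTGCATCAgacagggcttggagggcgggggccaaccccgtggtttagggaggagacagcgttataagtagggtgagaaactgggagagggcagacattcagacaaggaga

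Of 21 measured glycolysis genes 0 were higher, 3 lower (14.3%, against 2.99% of all genes) and 18 not called. Their median was -0.59 and the highest difference 0.74. Triosephosphate isomerase, Tpi1, stood at 385 CPM in the wild type, 1001 in G9a CM and 319 in the DKO, 3.14-fold lower in the DKO than in G9a CM (interval 3.03 to 3.25). Eno3, a muscle-type enolase gene, stood at 38.3, 79.8 and 26.0 CPM. Ldhb, a lactate dehydrogenase subunit gene, stood at 1428, 829 and 354 CPM. The summed level of the measured genes was 6016 CPM in the wild type, 9914 in G9a CM and 5911 in the DKO, so the catalytic mutant stood above both others. Hypoxia-inducible genes were mixed, with a median of 0.05 over 16 measured. Of these, 2 (12.5%) were higher and 4 (25%) lower, against 6.63% and 2.99% of all genes. Without a minimum level, 4 intervals of the 19 listed genes lay above 1 and 5 below, against 19.9% and 17.5% of all detected genes. The mitophagy gene Bnip3 fell from 256 to 61.5 CPM and the kinase gene Pdk1 from 149 to 58.3, while Ankrd37 (7.30 and 28.9 CPM), on chromosome 8, was higher.

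Replication-dependent histone genes had 0 higher and 10 lower of 47 measured, with a median of -0.57. The lower share was 21.3%, against 2.99% of all genes. Of the 47, 46 reached 1 CPM in G9a CM and 35 in the DKO, so some were measured only through the library where they were high. Without a minimum level, 29 intervals of the 70 listed genes lay below 1 and 1 above, against 17.5% and 19.9% of all detected genes. Hist1h2bm stood at 4.92 CPM in the wild type, 15.4 in G9a CM and 3.93 in the DKO, and Hist2h2bb at 1.65, 6.01 and 0.630. The list's median was 0.80 in G9a CM minus WT and 0.12 in the DKO minus WT. These transcripts lack poly(A) tails for the most part and many are near-identical copies, so their levels in a poly(A)-primed library are low and their split is uncertain. Of 15 measured genes of cyclins, kinases and their inhibitors, which act in the cell cycle, 1 was lower and 1 higher. These are too few genes to set against the 2.99% and 6.63% of all genes. The lower gene was Ccnd2 (2.95 and 0.866 CPM), 1 of 10 cyclin and kinase genes. The inhibitor gene Cdkn2b was higher, at 3.24 and 8.26 CPM.

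Interferon-stimulated genes, which sense and restrict viral RNA, had 0 higher and 5 lower of 28 measured, with a median of -0.19. The lower share was 17.9%, against 2.99% of all genes. The RNA sensor gene Ddx58 (RIG-I) stood at 46.1 CPM in the wild type, 81.2 in G9a CM and 22.7 in the DKO, and Zbp1, a nucleic acid sensor gene, at 4.56, 21.4 and 7.16. The effectors Gbp2 (6.66 and 0.866 CPM), Bst2 (29.0 and 6.85 CPM) and Oasl2 (9.01 and 3.23 CPM) were lower too. Bst2 was 1 of 6 lower genes on chromosome 8. None of the 6 signalling genes was called.

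Imprinted genes had 3 higher (6.82%) and 5 lower (11.4%) of 44 measured, against 6.63% and 2.99% of all genes. The higher share was thus near that of all genes, and the list's median was -0.37. Kcnq1ot1, the antisense RNA of the Kcnq1 imprinted domain, stood at 35.5 CPM in the wild type, 49.8 in G9a CM and 210 in the DKO, 4.21-fold higher in the DKO than in G9a CM (interval 3.89 to 4.55). No source used here gives the use of strand in counting, so its reads and those of the overlapping Kcnq1 cannot be told apart. The log2 difference in the deposited TPM was 1.21, below the 2.05 of the counts. The paternally expressed zinc finger gene Plagl1 stood at 1.53 and 6.30 CPM. Nnat, a paternally expressed membrane protein gene, fell from 11.4 to 1.97 CPM, and Snurf from 9.78 to 2.28. Of 20 maternally expressed genes 1 was higher and 2 lower, and of 24 paternally expressed genes 2 were higher and 3 lower.

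Further lower genes outside these lists were each several-fold down. Pim2, a serine/threonine kinase gene, stood at 29.8 CPM in the wild type, 148 in G9a CM and 24.5 in the DKO, 6.04-fold lower in the DKO than in G9a CM (interval 5.37 to 6.82). Gna14, a G-protein subunit gene, stood at 5.35, 38.1 and 3.86 CPM and Zcwpw1, a histone reader of meiotic recombination, at 4.05, 31.3 and 5.19. For Gna14 the G9a CM library was the highest of the 10, the others lying between 3.50 and 9.92 CPM. For Pim2 the wild-type libraries themselves differed, since the inhibitor control stood at 158 CPM and the UNC0638 libraries at 63.1 to 134, and Zcwpw1 stood at 5.80 CPM in the inhibitor control and 30.8 in J1. Ttc32 (39.0 CPM in the wild type, 24.0 in G9a CM and 4.88 in the DKO) and Flywch2 (11.1, 10.1 and 1.42 CPM) were lower in the DKO than in both others. Enpp2, which encodes the lysophospholipase autotaxin, stood at 4.17, 15.1 and 1.18 CPM, and Calml4 at 40.3, 81.6 and 12.4. The largest lower difference was that of Pagr1a (33.6 and 0.787 CPM), whose G9a CM count carries a posterior standard deviation of 22.6%.

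The machinery that writes, reads and erases the mark held few calls. Apart from Ehmt1, none of the 19 measured H3K9 methyltransferase and partner genes was called, and their median was 0.08, or -0.06 in the deposited TPM. Setdb1, which writes trimethylation, stood at 47.1 CPM in G9a CM and 59.3 in the DKO, and its corepressor Trim28 at 549 and 706. The G9a/GLP partners Wiz (5.24 and 5.59 CPM) and Zfp644 (29.9 and 37.3 CPM) differed little. The heterochromatin reader Cbx1 stood at 622 and 384 CPM and the partner Cdyl at 102 and 55.0. None of 9 demethylase, 12 PRC1.6 or 11 DNA methylation genes was called. Dnmt3l, a cofactor of de novo methylation, came closest, at 73.8 CPM in the wild type, 349 in G9a CM and 180 in the DKO, a log2 difference of -0.95. The PRC1.6 subunit gene E2f6 stood at 14.7 and 8.26 CPM.

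Naive pluripotency genes held few calls as well, with 1 higher and 0 lower of 28 and a median of -0.03, which was 0.08 when scaled by total count. The gene called was Pecam1, an adhesion molecule of the stem cell surface, at 22.5 and 58.2 CPM. Of 17 formative and primed genes 3 were higher (17.6%) and 1 lower (5.88%). These are too few genes to set against the 6.63% and 2.99% of all genes. All 3 higher genes belong to Nodal signalling: Lefty2 (14.4 and 52.0 CPM), Lefty1 (10.2 and 29.4 CPM) and the ligand gene Nodal (12.6 and 28.1 CPM). Lef1, a Wnt effector gene, was lower (8.31 and 1.89 CPM). Of 17 measured trophoblast genes Gata3 (1.12 and 7.40 CPM) and Ly6a (1.53 and 4.64 CPM) were higher and Ascl2 (19.7 and 7.24 CPM) lower. No primitive endoderm or neural gene was called, and the fibroblast genes Acta2 (4.36 and 1.02 CPM) and Thy1 (1.94 and 0.393 CPM) were lower. None of the 78 cytosolic ribosomal protein genes was called in either direction.

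Chromosome 8 stood out from the other chromosomes. Of its 733 measured genes 124 (16.9%) were higher and 6 (0.82%) lower, against 6.63% and 2.99% of all genes. Over the 447 with at least 10 CPM in either library the median log2 difference was 0.47, against -0.05 over all 7990 such genes and between -0.18 and 0.03 on the other chromosomes. The median on chromosome 8 was -0.43 in G9a CM minus WT TT2 and 0.08 in the DKO minus WT TT2, which share the WT library. With 1 wild-type library as reference, which library deviates cannot be told apart. Against the same WT TT2 library, chromosome 1 had medians of -0.50 in G9a CM and -0.53 in the DKO and was level between them (-0.04). Here too, low mutants and a high WT TT2 library cannot be told apart. On the X chromosome 59 of 527 genes (11.2%) were higher and 14 (2.66%) lower. Its median difference of -0.02 was close to that of all genes, so its higher genes were a subset. On chromosome 6, where the glycolysis gene Tpi1 lies, 36 of 629 genes (5.72%) were higher and 41 (6.52%) lower. That was the largest lower share of any chromosome, and the median difference was -0.18. DNA copy number was not measured, and its part in the chromosome 8 and chromosome 6 differences was not tested. Without chromosome 8, 795 genes were higher and 408 lower, and 66.1% of calls were higher. The genes Nanos3, Slc7a5, Ankrd37, Cdh1 and Bst2 lie on this chromosome.

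**Figure D5:**
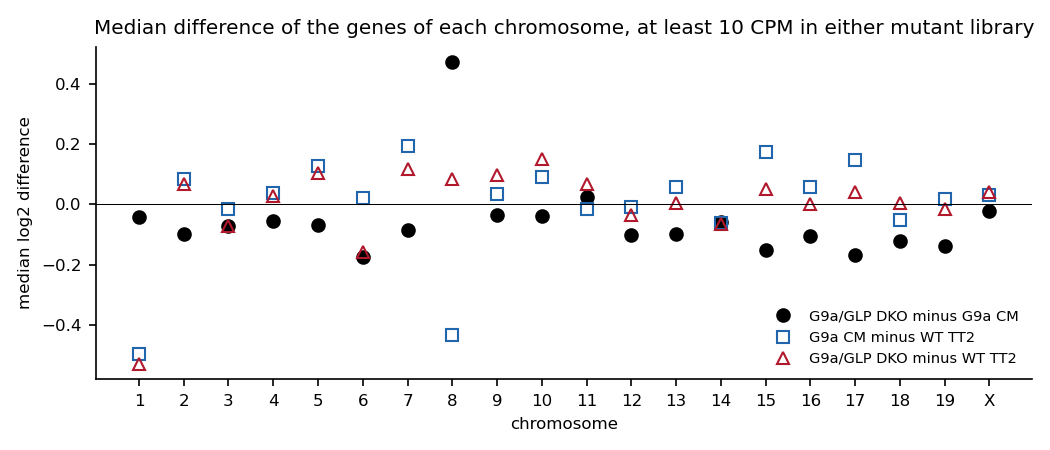
Points give, for each chromosome, the median log2 difference of genes at 10 CPM or more in either mutant library, for the G9a/GLP DKO minus G9a CM (filled circles), G9a CM minus WT TT2 (squares) and the DKO minus WT TT2 (triangles). Chromosome 8 is at 0.47, -0.43 and 0.08, chromosome 1 at -0.04, -0.50 and -0.53, and the other chromosomes lie closer to 0, with DKO minus G9a CM medians from -0.18 to 0.03.

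Some genes called the same way sat side by side. There were 34 runs of at least 3 neighbouring measured genes called higher, with 121 genes or 13.2% of the higher genes, and 7 runs called lower, with 23 genes or 5.56% of the lower ones. The longest held 7 genes: Tcstv1, Gm21761, B020031M17Rik, Gm20767, Gm21818, AF067061 and BC147527 on chromosome 13 (119893387 to 120308843). A run of 6 held the Zscan4 genes and pseudogenes of chromosome 7 (11005745 to 11614112). Other runs held unrelated neighbours, such as Eya1, Msc and Trpa1 on chromosome 1, and some held gene families. The aldo-keto reductase genes Akr1c18 (0.648 and 14.2 CPM) and Akr1c13 (3.65 and 22.0 CPM), which act on steroids, neighboured Akr1c14, which had 0 counts in G9a CM and 28 in the DKO and was at least 12.5-fold higher over the group's limit of 3 counts. The carbonic anhydrase genes Car13, Car3 and Car2 stood together on chromosome 3, with Car2 at 34.4 and 247 CPM. The drug efflux pumps Abcb1a (4.36 and 23.8 CPM) and Abcb1b (13.8 and 52.4 CPM) neighboured on chromosome 5. On chromosome 15, Gml, Gml2, Ly6e and Ly6a, which encode surface proteins with lipid anchors, were all higher, and Ly6e stood at 138 CPM in the wild type, 82.4 in G9a CM and 358 in the DKO. Of the 34 higher runs 6 were on chromosome 8, 1 of them with the cadherin gene Cdh1 (58.9 and 124 CPM).

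The longest lower run held 5 genes of chromosome 6 (124663094 to 124741069): Lpcat3, Emg1, Phb2, Ptpn6 and Grcc10, with a median of -1.31. Emg1, a ribosome assembly gene, stood at 854 CPM in the wild type, 859 in G9a CM and 356 in the DKO. Phb2, which encodes a mitochondrial prohibitin, stood at 367, 803 and 362 CPM. A second run close by (124808604 to 124829484) held Spsb2, Tpi1 and Usp5, so the lower Tpi1 lay in a group of lower neighbours of unlike function. The glutathione transferase genes Gstm7, Gstm6 and Gstm3 were lower together on chromosome 3, with Gstm3 at 27.4 and 9.99 CPM. Counting without strand can lend reads to overlapping neighbours, and its part in the runs was not tested.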

How the data were processed

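RNA was measured in 10 libraries, 1 per group. Reads were aligned with STAR 2.5.3a and quantified with RSEM on GRCm38 (mm10), per the submitters' processing notes. The annotation release and strand use are not given in the sources used here. Per gene, the deposited tables hold expected counts per gene, estimated by the authors with RSEM, which were rounded to whole numbers, and TPM, computed by the authors per length and used as an alternative. Posterior standard deviations of the counts were read from the same deposited tables as a score of uncertain read sharing.

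CPM used effective library sizes from edgeR 4.0.16 (TMM over the 10 libraries, R 4.3.3). A pseudocount of 1 CPM was added before the log2. Intervals of the ratio of 2 counts are exact (Clopper-Pearson, conditional on their sum, 95%) and were computed with Python 3.11.15, scipy 1.17.1 and pandas 2.3.3. The call rule was run on simulated counts with counting error only. Such counts hold no variation between cultures or clones and no repeated reads, so they cannot show how reliable the calls are here. Symbols came from a gene name table (99.7% of IDs matched), coordinates and promoters from RefSeq (GRCm38.p6), matched by symbol for 96.3% of measured genes.

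Promoters were found for 74.2% of measured genes, 58.0% of the higher and 73.7% of the lower ones. That is below the 80% needed, so promoters of the called genes were not compared as sets.

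The text names Ehmt1 and Ehmt2, the 12 protein-coding genes with the largest differences each way and at least 10 CPM in the higher library (from the top), up to 4 members of each list by size of difference, and members of runs. Other list members named were chosen after their values were seen. The members of this comparison, the 30 gene lists and the rules were chosen with earlier results of these data known.

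Alternatives were scaling by total count, DESeq2 1.42.0 size factors or TMM of the pair, deposited TPM, pseudocounts of 0.5 and 5, no minimum or 5 CPM, a log2 difference of 2, and leaving out chromosome 8 or genes of uncertain count. Some single genes of the lists are not reported here.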

Additional observations from a re-analysis of the deposited data

How the results depend on the processing

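With 1 library a group there was no replicate to leave out. No paired analysis was possible because no test was run. Of the 40 counts of called genes recomputed under the alternatives, 32 stayed within 1.5 times their value and 8 did not. Genes higher in the DKO than in G9a CM fell from 919 to 265 with a pseudocount of 5 CPM, 579 at a minimum of 5 CPM and 123 at a log2 difference of at least 2. Lower genes fell from 414 to 148 with a pseudocount of 5 CPM and 29 at a log2 difference of at least 2. For the inhibitor control against WT TT2, lower genes fell from 3008 to 1894 with a pseudocount of 5 CPM, and a log2 difference of at least 2 left 1354 higher and 574 lower genes. The larger pseudocount and the higher minimum call fewer genes by construction, since many called genes are low.

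Scaling by total count moved the median of all genes from 0.03 to 0.14 and gave 1180 higher and 327 lower genes, so 78.3% of calls were higher; the 919 higher genes were all among them. The deposited TPM gave 1074 higher and 510 lower genes, with 624 and 280 shared with the counts. Of 240 list medians recomputed, 221 moved by no more than 0.25 and 19 by more. With a pseudocount of 5 CPM the 2-cell-stage median fell from 2.47 to 1.25, Mage from 1.15 to 0.70, Xlr from 0.92 to 0.56, Rhox from 0.66 to 0.29, Pramel and Nlrp4 from 1.12 to 0.59, and the histone median moved from -0.57 to -0.27. Without a minimum the 2-cell-stage median was 1.48, Mage 0.17, Rhox 0.22 and Pramel and Nlrp4 0.59; at a minimum of 5 CPM Mage was 2.33 and the histones -0.86. The trophoblast median was -0.27 and the fibroblast median 0.47 at a minimum of 5 CPM, and the fibroblast median was -0.68 in TPM. None of the 131 named genes recomputed changed sign under these alternatives. Depth limits the low genes most: at 3 counts in G9a CM the interval of a ratio spans more than 10-fold.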

Other observations

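Further lists were read in the same way, with 6.63% of all genes higher and 2.99% lower as their background. Among p53 target genes 1 of 13 measured was higher, the proapoptotic gene Pmaip1 (7.48 CPM in G9a CM and 16.3 in the DKO), and the median log2 difference was 0.41. The ectodysplasin receptor gene Eda2r stood at 26.4 and 53.7 CPM, just under a call. Sterol biosynthesis genes had a median of -0.36 over 23 measured genes, with the isoprenoid enzyme gene Fdps at 430 and 254 CPM. Of 12 measured KRAB zinc finger genes, a family of repressors that recruit Trim28, Zfp951 was higher (13.5 and 34.4 CPM) and Zfp647 lower (4.36 and 1.65 CPM). Clustered protocadherins, cell surface proteins of neurons, were nearly silent in both libraries, and only 2 of 58 reached 1 CPM.

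On chromosome 14, Gm6526 and 4930503E14Rik were neighbours within a run of 4 higher genes. Gm6526 stood at 1.35 CPM in G9a CM and 23.0 in the DKO, and 4930503E14Rik at 7.42 and 25.2. On the X chromosome, 1700013H16Rik stood at 1.30 CPM in the wild type, 3.71 in G9a CM, 25.1 in the G9a/GLP DKO and 96.0 in the Dnmt3a/3b DKO.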
